A study of Mus musculus with 6 samples.

Results

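Transcripts of the Notch pathway were examined in mCherry-positive cells sorted from mouse cortex. They were those of receptors (Notch1, Notch2, Notch3), ligands (Jag1, Dll1, Dner), the feedback inhibitor Nrarp, and target genes (Hes1, Hes5, Hey1). These 10 genes were chosen by symbol, and all 10 were among the 24421 genes of the deposited table. Mice of the CD51-Flp line, named for integrin alpha V (CD51), received the virus AAV-GFAP-FSF-hM3D-mCherry, whose expression is limited by the Flp recombinase and by the GFAP promoter. The receptor hM3D couples to Gq and responds to the designer drug clozapine-N-oxide (CNO). Both groups carried the receptor and mCherry and were injected 2 times per day from postnatal day 7 until day 21, 1 group with CNO and the other with saline. On day 21 mCherry-positive cells were sorted from cortex, which gave 3 CNO libraries (replicates 1, 2 and 3) and 3 saline libraries (replicates 3, 4 and 5). No group received CNO without the receptor, so effects of CNO itself and of the receptor cannot be told apart.

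Notch receptors are single-pass membrane proteins that bind ligands of the Jagged and Delta-like families on neighbouring cells. Binding exposes the receptor to an ADAM protease and then to gamma-secretase, and the freed intracellular domain enters the nucleus, joins the DNA-binding protein Rbpj and a Mastermind co-activator, and switches on Hes and Hey genes. Hes and Hey proteins are basic helix-loop-helix repressors that hold back neuronal differentiation. In the developing cortex this route keeps radial glia undifferentiated and favours the astrocyte fate, and in blood vessels it is known for arterial and mural cell identity.

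Values are normalized counts, that is, reads per gene divided by 1 size factor per library. The shallowest library was CNO 1 with 3908076 reads and the deepest CNO 2 with 19224186. CNO 1 stood apart, since a single read there equals 4.23 normalized counts against 0.503 to 0.970 elsewhere. A count of 0 allows a level of up to 3 reads, which is 12.7 normalized counts in CNO 1, 2.22 in CNO 2 and 2.91 in CNO 3. All 12 astrocyte markers had reads in every library and took 2.05% to 2.96% of reads in saline and 1.07% to 3.45% in CNO. Mature oligodendrocyte markers took more, 5.33% to 7.84% in saline and 11.1% to 24.5% in CNO, so transcripts cannot be assigned to astrocytes alone. In bulk RNA, fewer cells of a type and less RNA per cell cannot be told apart.

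Across the 10 Notch genes no difference between CNO and saline passed the test. The values of the CNO libraries all lay below those of saline for Notch1, Notch3, Hes1 and Hes5, and all above them for Hey1. For Notch3 the 0 in CNO 1 allows a level of up to 12.7, above the values of saline 4 and 5. Over the 13028 genes tested with limma (adjusted p under 0.05), 2 genes passed (0.0154%), both higher in CNO, and 0 of the 10 Notch genes did, with adjusted p from 0.492 to 0.904. At an unadjusted p under 0.05 limma found 2 of the 10, Notch1 and Notch3, both lower, beside 9.53% of all tested genes (7.25% lower and 2.28% higher). Called at an adjusted p under 0.05 were 0 of the 10 in edgeR, in edgeR without the filter (0.0966% of all genes), in DESeq2 (1.91%) and in limma-voom (0.123%). DESeq2 gave no adjusted p for Notch3, Dll1 and Hes5. Genes whose groups did not overlap and that were lower in CNO made up 4 of the 10 Notch genes and 12.5% of all tested genes. Those higher in CNO made up 1 of the 10 and 4.57%. Among the 44 other genes of the Notch pathway that were tested, 2 were lower without overlap and 1 higher.

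**Figure D1:**
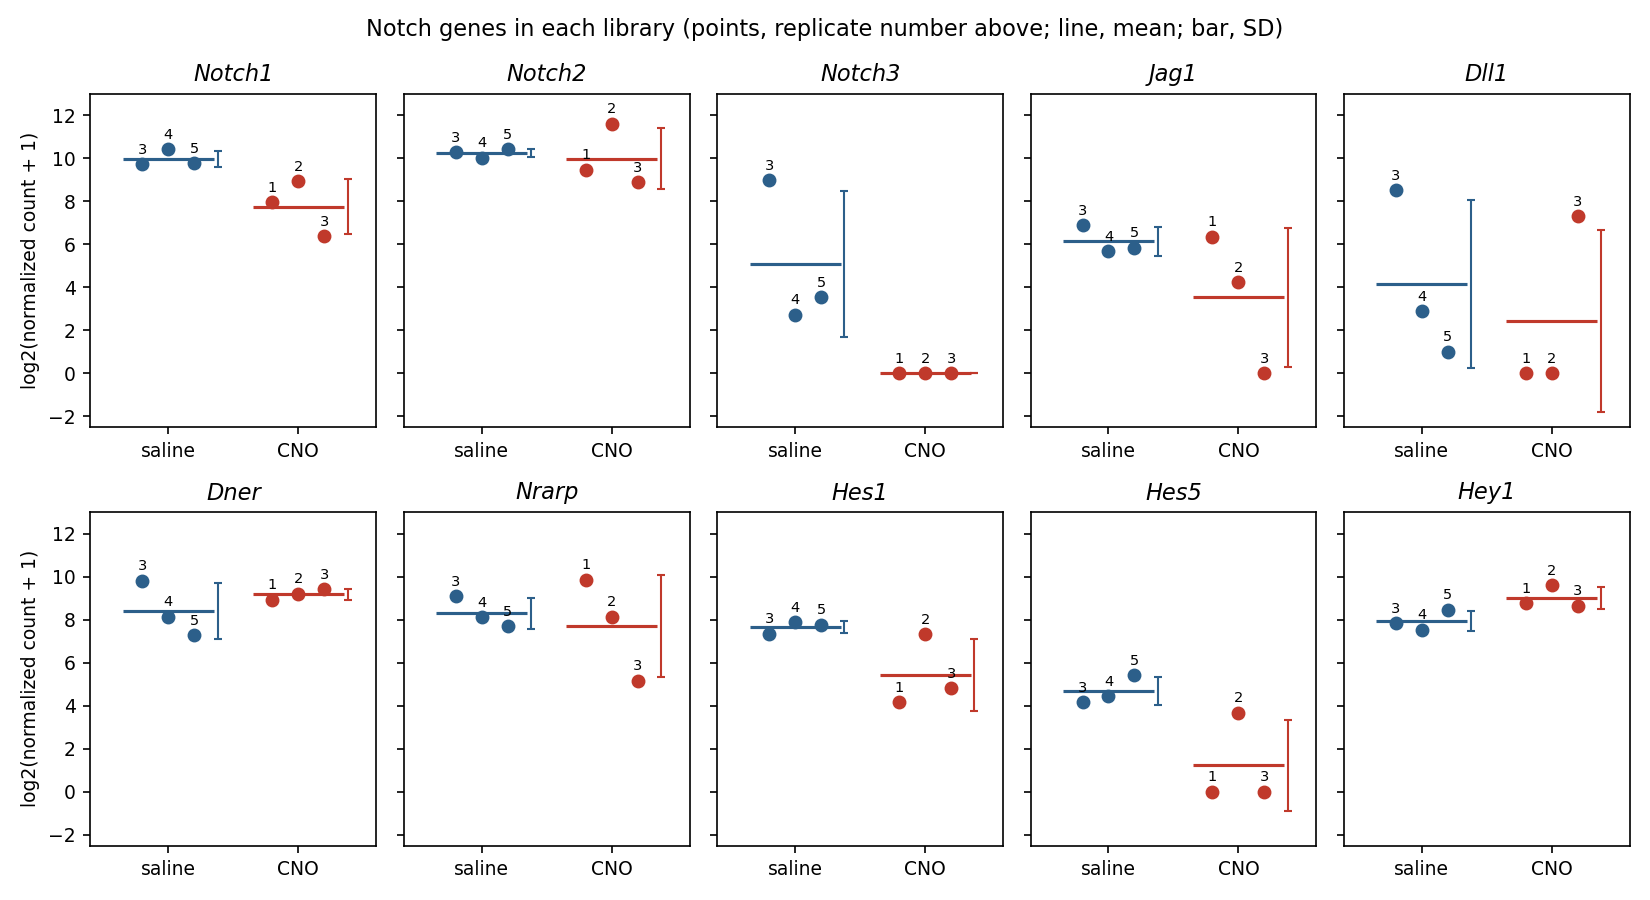
Log2 of the normalized count plus 1 (vertical axis) of the 10 Notch genes in the 3 saline and 3 CNO libraries, 1 point per library with its replicate number, the group mean as a line and the SD as a bar. The points of Notch1, Notch3, Hes1 and Hes5 lie lower in all CNO libraries, and those of Hey1 lie higher. For Notch3 the CNO 1 library, without reads, allows up to 12.7 normalized counts, above the values of saline 4 and 5. The SD is larger in CNO for 8 of the 10 genes, beside 80.6% of all tested genes.

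Of the receptors, Notch1, the receptor best known for keeping neural progenitors undifferentiated (chromosome 2, 26457903 to 26516663, GRCm38), stood at 245, 487 and 81.5 normalized counts in CNO 1, 2 and 3. It stood at 846, 1359.9 and 866 in saline 3, 4 and 5. The highest CNO library thus lay below the lowest saline library. Its means were 271 ± 204 in CNO and 1024 ± 291 in saline (SD, n = 3 each), a 3.78-fold lower mean in CNO. The log2 fold change, the difference between mean log2 values, was -2.22 ± 0.89 (SE, limma adjusted p = 0.496). These values rest on 58, 658 and 84 reads in CNO and 1492 to 1721 in saline.

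Notch2, the paralogue of Notch1 that is also found in radial glia (chromosome 3, 98013527 to 98150361), had 706, 3114 and 467 normalized counts in CNO and 1247, 1037 and 1366 in saline. The saline libraries lay close together, and CNO 2 lay above all of them while CNO 1 and 3 lay below. The log2 fold change was -0.26 ± 0.76 (limma adjusted p = 0.904), with a 95% interval from -1.92 to 1.39 that holds large differences in both directions. Its sign turned in edgeR and DESeq2 and without CNO 3.

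Notch3, a receptor known from pericytes and smooth muscle cells (chromosome 17, 32120820 to 32166852), had 0 reads in each CNO library and 879, 7 and 21 reads in saline 3, 4 and 5. In normalized counts the saline libraries stood at 498, 5.60 and 10.6, so 1 library held nearly all of the signal. Saline 4 and 5 lay below the CNO 1 floor of 12.7, so the 0 in CNO 1 cannot be placed below them. The saline mean was at least 28.9-fold higher than the mean CNO floor of 5.94. Without saline 3 that bound was at least 1.36-fold, with a saline mean of 8.09. The limma log2 fold change was -5.07 ± 1.99 (adjusted p = 0.492). Likewise at 0 reads in all CNO libraries were 3.98% of all tested genes, and 11.6% of those with a mean from 10 to 100, as Notch3 has. Mural markers took 0.0105% of reads in saline 3, 0.0113% in saline 4 and 0.0241% in saline 5, and 0.00645% to 0.0153% in CNO. Of 10 mural markers, 6 were at 0 in CNO 1, 2 in CNO 2, 4 in CNO 3 and 2 to 3 in the saline libraries. Their part in the level of Notch3 was not tested.

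Among the ligands, Jag1, a Jagged ligand that astrocytes and endothelium can present (chromosome 2, 137081456 to 137116644), stood at 80.3, 17.8 and 0 normalized counts in CNO and 117, 49.6 and 55.9 in saline. CNO 1 lay inside the saline range, and the 2 other CNO libraries lay below it. The log2 fold change was -2.60 ± 2.16 (limma adjusted p = 0.667). It was -0.84 without CNO 3, -4.01 without CNO 1 and -0.40 with quantile scaling. Dll1, a Delta-like ligand of committed progenitors (chromosome 17, 15367354 to 15376872), had 0 reads in CNO 1 and 2 and 156 normalized counts in CNO 3. In saline it stood at 365, 6.40 and 1.01. A single library of each group thus carried most of its reads, 161 in CNO 3 and 643 in saline 3. Its log2 fold change was -1.70 ± 2.65 (limma adjusted p = 0.808) and became 0.49 without saline 3. Saline 3 was the highest library for Notch3, Jag1, Dll1 and Dner.

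Dner, a membrane protein with EGF repeats described as a non-canonical Notch ligand on neurons (chromosome 1, 84369839 to 84696221), was the most even in CNO of the genes with reads there. It stood at 486, 587 and 687 normalized counts in CNO and at 900, 279 and 153 in saline. The CNO values lay within the wider saline range. The log2 fold change was 0.78 ± 0.90 (limma adjusted p = 0.743). Neuron markers took 0.0129% to 0.0235% of reads in CNO and 0.0161% to 0.0316% in saline, with 7 of the 10 neuron markers at 0 in CNO 1, and their part in the level of Dner was not tested.

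Among the target genes, Hes1, the repressor that oscillates in neural progenitors (chromosome 16, 30064384 to 30067796), stood at 16.9, 159 and 27.2 normalized counts in CNO and 162, 234 and 215 in saline. All CNO libraries were below all saline libraries, although CNO 2 missed the lowest saline library by little. The mean was 67.7 ± 79.3 in CNO and 204 ± 37.5 in saline, 3.01-fold lower in CNO, with a log2 fold change of -2.23 ± 1.51 (limma adjusted p = 0.624). CNO 1 gave 4 reads of Hes1 and CNO 3 gave 28.

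Hes5, a Hes factor of radial glia that depends closely on Notch activity (chromosome 4, 154960923 to 154962371), had 0, 16 and 0 reads in CNO 1, 2 and 3 and 30, 26 and 83 reads in saline 3, 4 and 5. In normalized counts this was 11.8 in CNO 2 against 17.0, 20.8 and 41.8 in saline. The log2 fold change was -3.45 ± 1.87 (limma adjusted p = 0.565). In CNO 1 the floor of 12.7 lies close to the saline values, so a level up to that height was not detectable there. In CNO 3 the floor of 2.91 lies below every saline value, but that floor covers counting error only. Of tested genes with a mean from 10 to 100, 49.2% had 0 reads in CNO 3, against 9.36% to 10.5% in the saline libraries.

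The promoter of Hes5 is printed because, of the promoter windows searched, it holds the letters of the Rbpj site, through which the Notch intracellular domain acts. Promoters were taken from RefSeq (GRCm38.p6), 250 bases before to 50 after each start, and 9 windows matched 8 of the 10 genes. Hes1 and Hey1 were not searched. The motif GTGGGAA was searched on both strands, as GTGGGAA and TTCCCAC. The Hes5 window held 2 matches, 1 on each strand, and the other 8 windows held 0. Of all 32851 promoter windows 6.38% held at least 1 match and 0.256% at least 2. The 250 bases before the start follow 5′ to 3′ on the plus strand, chr4:154960673-154960922, with the matches in capitals, at bases -226 to -220 and -83 to -77 from the start.
Hes5: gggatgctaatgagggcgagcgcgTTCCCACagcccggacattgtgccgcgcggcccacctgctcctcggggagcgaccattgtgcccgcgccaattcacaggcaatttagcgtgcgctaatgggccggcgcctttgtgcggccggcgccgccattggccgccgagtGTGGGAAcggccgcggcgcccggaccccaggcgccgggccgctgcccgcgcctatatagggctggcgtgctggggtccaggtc
A match describes letters only, and binding was not measured.

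Hey1, a Hairy-related repressor induced by Notch in blood vessels (chromosome 3, 8663359 to 8667256), was the only 1 of the 10 that was higher in every CNO library. It stood at 435, 779 and 401 normalized counts in CNO and at 227, 185 and 353 in saline. On the deposited scale the groups were separated by the gap between 353 and 401. As a share of all reads they overlapped, with 413 of 17102657 reads in CNO 3 and 702 of 19052161 in saline 5. The means were 538 ± 209 and 255 ± 87.6, a ratio of means of 2.11, and the log2 fold change was 1.06 ± 0.87 (limma adjusted p = 0.667, 95% interval -0.85 to 2.97). Endothelial markers took 0.00197% to 0.0393% of reads in CNO and 0.00810% to 0.0234% in saline. At 0 were 7 of the 12 endothelial markers in CNO 1, 5 in CNO 2, 2 in CNO 3 and 2 to 3 in each saline library. Bmx was at 0 in all 6 libraries. Their part in the level of Hey1 was not tested.

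Nrarp, a small ankyrin-repeat protein that is switched on by Notch and limits the intracellular domain (chromosome 2, 25180758 to 25183339), stood at 921, 280 and 34.9 normalized counts in CNO. In saline it stood at 539, 274 and 205. The CNO libraries spanned the saline range on both sides. The log2 fold change was -0.57 ± 1.27 (limma adjusted p = 0.872), and its sign turned in edgeR and DESeq2 and without CNO 3.

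Fold changes depended on level in these libraries. For all genes tested the median log2 fold change stood at -0.89 in limma and at 0.004 in DESeq2. Relative to -0.89, Notch1 stood at -1.33, Hes1 at -1.34, Hes5 at -2.56, Notch3 at -4.19, Hey1 at 1.95 and Dner at 1.67. By mean normalized count, the median stood at -2.28 in the class from 10 to 100, -1.44 for 100 to 300, -0.35 for 300 to 1000 and 0.33 for 1000 to 10000. Against the median of its own class, Notch1 was lower by 1.87 on the log2 scale, with Hes1 at -0.78 and Hes5 at -1.18. Hey1 was higher by 1.41 and Dner by 1.13. Of the 10 genes, 7 lay below their class median and 3 above. In the class of Hes5, Jag1, Notch3 and Dll1 (10 to 100), 72.0%, 23.4% and 49.2% of genes were at 0 reads in CNO 1, 2 and 3, against 9.36% to 10.5% in the saline libraries. Of the 10 Notch genes, 4 were at 0 in at least 1 CNO library and 0 in any saline library. Genes lower in CNO without overlap made up 21.3% of that class and 7.08% of the class of Notch1 and Hey1 (300 to 1000).

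**Figure D2:**
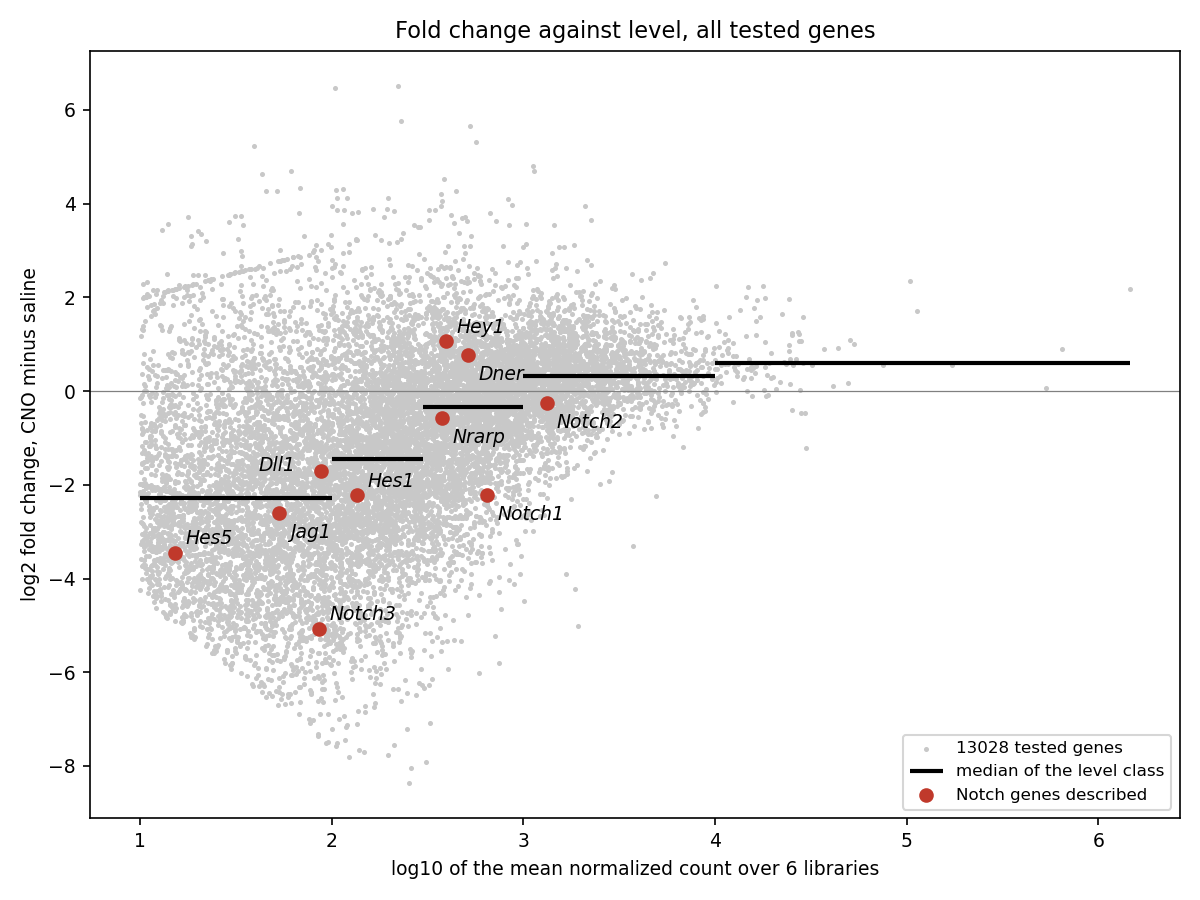
Log2 fold change, CNO minus saline (vertical axis), against log10 of the mean normalized count over the 6 libraries (horizontal axis) for the 13028 tested genes in grey, with the median of each level class in black and the 10 Notch genes in red. Class medians run from -2.28 at the lowest level to 0.60 at the highest, and Notch1 lies 1.87 below its class while Hey1 lies 1.41 above.

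Notch1 and Hey1 share a level class and lay on opposite sides of it, so genes were also compared within each library, where size factors cancel but the dependence on level does not. The class medians were 0.33 for Notch2 and -0.35 for Notch1, and -0.35 for Hey1 and -1.44 for Hes1. The 6 genes that had reads in all libraries gave 15 pairs, formed after the values were seen. The ratio of Notch2 to Notch1 was 2.88, 6.40 and 5.73 in CNO 1, 2 and 3 and 1.47, 0.762 and 1.58 in saline 3, 4 and 5. The lowest CNO ratio was thus above the highest saline ratio. The mean log2 ratio was 1.96 higher in CNO (2.24 ± 0.62 against 0.28 ± 0.58, SD, n = 3 each, 2-sided exact permutation p = 0.1, the smallest that 3 against 3 allow, and 0.3 when adjusted over 15 pairs). The ratio of Hey1 to Hes1 was 25.75, 4.90 and 14.75 in CNO and 1.41, 0.791 and 1.64 in saline. Its mean log2 ratio was 3.33 higher in CNO (exact permutation p = 0.1, adjusted p = 0.3). Since Hey1 was higher and Hes1 lower in all CNO libraries, this ratio had to separate, and its p adds nothing to those values. Of the 15 pairs, 5 separated without overlap, each with Notch1 or Hes1 as the denominator. Each pair was turned so that its mean log2 ratio was higher in CNO. Of the 6 genes only Notch1 and Hes1 were lower without overlap, so this pattern adds nothing to their values. Hey1 over Notch1 had to separate, as Hey1 over Hes1 did. The share of separated pairs among other genes was not computed. For Notch1 over Hes1 the mean log2 ratio was 2.35 ± 1.30 in the CNO libraries and 2.31 ± 0.27 in the saline libraries (2-sided exact permutation p = 1), and the difference ran from -0.71 to 0.42 with a library left out.

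**Figure D3:**
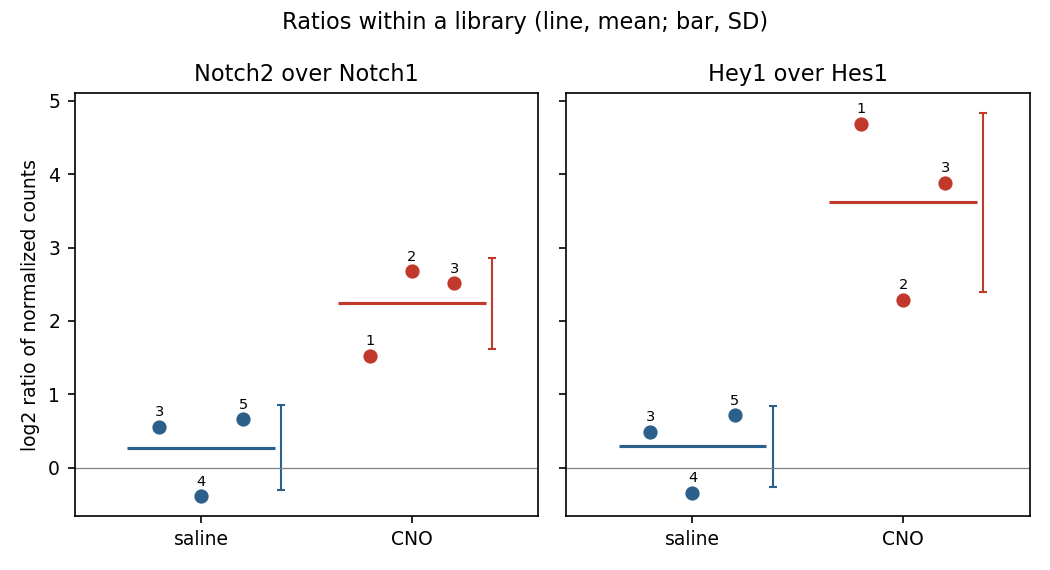
Log2 ratio of normalized counts (vertical axis) of Notch2 over Notch1 and of Hey1 over Hes1 within each library, 1 point per library with its replicate number, the group mean as a line and the SD as a bar. Mean log2 ratios are 2.24 and 0.28 for Notch2 over Notch1 and 3.62 and 0.29 for Hey1 over Hes1 in CNO and saline.

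Per kilobase of exon (GENCODE vM21, GRCm38), levels in saline were highest for Nrarp at 131 ± 68.2 normalized counts per kilobase, followed by Notch2 at 113 ± 15.5, Hes1 at 99.9 ± 18.4 and Dner at 92.8 ± 83.5. Hey1 at 78.2 ± 26.8 and Notch1 at 71.9 ± 20.5 came next. Dll1, Notch3, Hes5 and Jag1 lay between 29.4 and 12.7. Each of the 9 pairs of neighbours in this order overlapped between libraries. In CNO the order began with Hey1 at 165 ± 64.1 per kilobase, then Nrarp at 159.5 ± 177, Notch2 at 133 ± 136 and Dner at 123 ± 21. Hes1 followed at 33.2 ± 38.9 and Notch1 at 19.1 ± 14.3, and the step from Dner to Hes1 was the only 1 of the 9 without overlap.

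The whole pathway list, which includes the Notch genes described above, gave no call in limma. Of 61 pathway genes grouped by role, 54 were tested, and 0 passed as higher and 0 as lower, beside 0.0154% of all tested genes. At an unadjusted p under 0.05 in limma, 4 of the 54 were lower and 1 higher, beside 7.25% and 2.28% of all tested genes. Log2 fold changes were below 0 for 37 of the 54 and above 0 for 17, beside 68.3% of all tested genes below 0. The median of the list was -0.66, against -0.89 for all tested genes. DESeq2 called 2 of the list, Dtx2 and Hey2, both lower, beside 1.91% of all genes, and edgeR and limma-voom called 0.

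Among receptors and ligands outside the 10, Notch4, an endothelial receptor, had a log2 fold change of -2.54 ± 2.34 that turned to 1.09 with quantile scaling and also turned in edgeR and DESeq2. The ligands Jag2, Dll3 and Dll4 were under the mean of 10 needed for testing. Dlk1, a non-canonical ligand, stood at 258 normalized counts in CNO 1 and at most 2.22 elsewhere. For the Fringe enzymes that add sugars to the receptor, Mfng had -2.35 ± 1.45 and Rfng -2.74 ± 2.19, which was -1.09 without CNO 1. Of the ubiquitin ligases that drive ligand endocytosis, Neurl1a had -2.74 and Mib2 -2.18, and both turned with quantile scaling, to 0.35 and 0.39. In gamma-secretase, Aph1a had -3.48 ± 2.18 and Psenen -2.86 ± 2.13. Both had 0 reads in CNO 1, and without that library they stood at -1.66 and -0.16. None of these passed in limma, and their role groups held 0 calls.

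Inhibitors and turnover genes included the lowest p of the pathway list. Dtx2, a Deltex ubiquitin ligase, had 0 reads in each CNO library and 79.4, 92.8 and 57.9 normalized counts in saline 3, 4 and 5. Of tested genes with a mean from 10 to 100, as Dtx2 has, 11.6% likewise had 0 reads in all CNO libraries. The saline mean was at least 12.9-fold higher than the mean CNO floor, and at least 11.6-fold without saline 4. Its limma log2 fold change was -6.25 ± 1.75 (adjusted p = 0.488), and DESeq2 gave an adjusted p of 0.0253. Numbl, which antagonizes Notch, had -4.26 ± 2.08. In the nuclear group, Ep300, a histone acetyltransferase recruited by the Notch complex, stood at 7188, 5340 and 5338 in CNO and 3721, 3287 and 2220 in saline. Ep300 was higher in every CNO library (log2 fold change 0.97 ± 0.41, limma adjusted p = 0.512). The same held for 4.57% of all tested genes and for 15.3% of those with a mean from 1000 to 10000, the class of Ep300. The median log2 fold change of that class was 0.33. Tle3, a Groucho co-repressor that Hes proteins use, had -4.16 ± 1.98 with 0 reads in CNO 1, and -1.56 without that library.

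Of the 9 Hes and Hey factors, 6 were tested, and 3 of them, Hes1, Hes5 and Hey2, were lower in CNO without overlap, beside 12.5% of all tested genes. That share was 21.3% in the level class of Hes5 and Hey2 and 12.9% in the class of Hes1. Hey2, an arterial relative of Hey1, stood at 4.23, 2.22 and 0 normalized counts in CNO and 215, 70.4 and 47.3 in saline. Its log2 fold change of -5.15 ± 1.94 (limma adjusted p = 0.491, DESeq2 adjusted p = 0.0379) lay opposite in sign to that of Hey1. Hes6, which counteracts Hes1, had -1.56 ± 2.23 and turned to 0.59 with quantile scaling, and it stood at 183 normalized counts in saline 5 and at most 19.2 elsewhere.

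**Figure D4:**
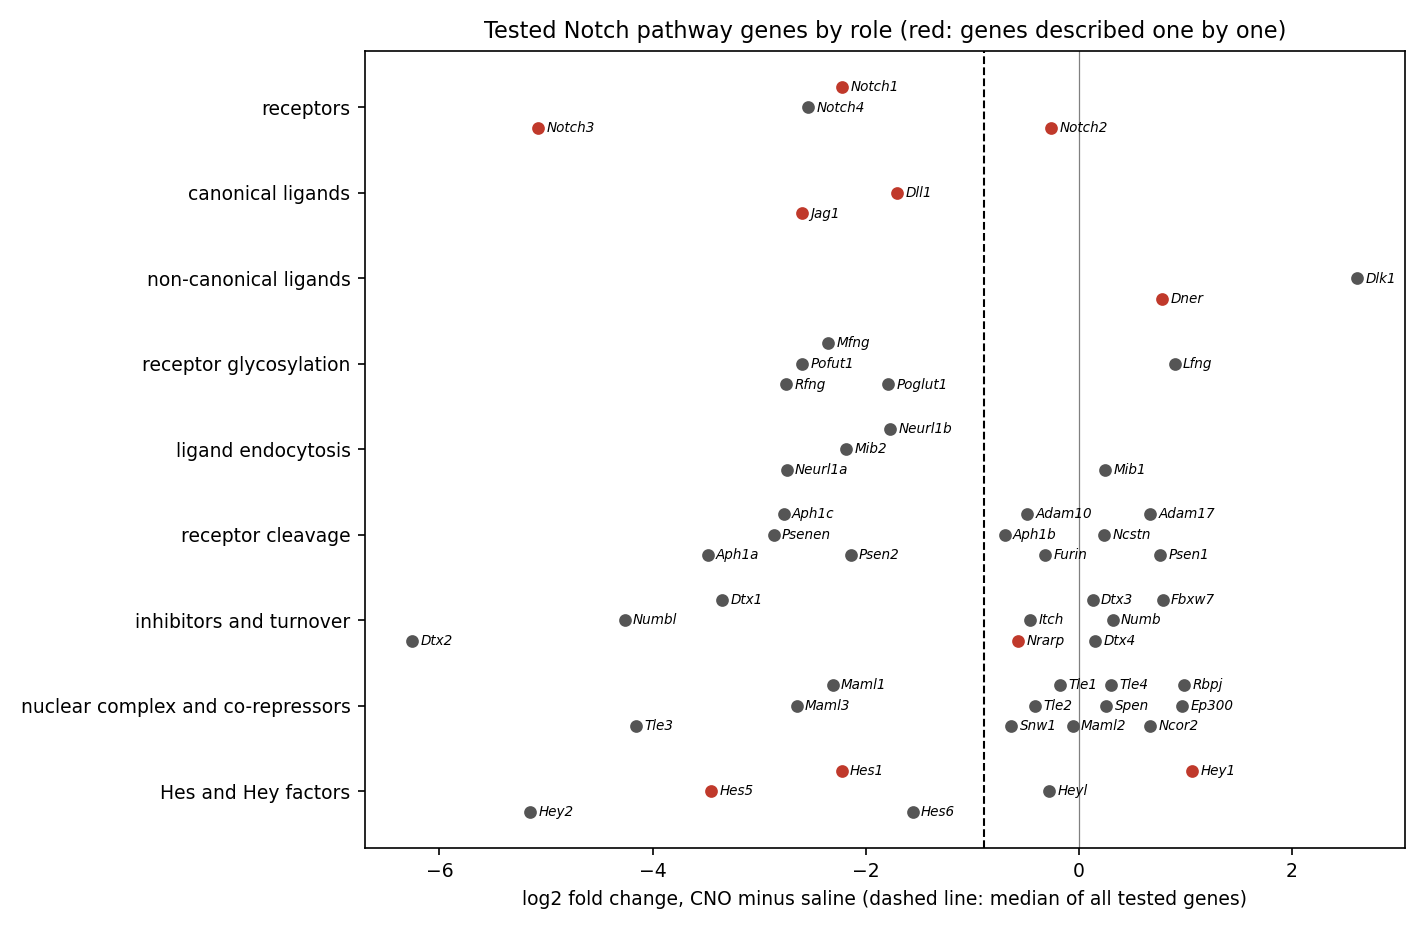
Log2 fold change, CNO minus saline (horizontal axis), of the 54 tested Notch pathway genes in rows by role, with the 10 genes described one by one in red and the median of all tested genes as a dashed line. The dashed line stands at -0.89. The medians of the roles run from -2.38 for receptors to 1.70 for non-canonical ligands, and the genes differ in level, on which fold changes depend.

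Scaling each library to its astrocyte markers left these log2 fold changes nearly as they were. Notch1 stood at -2.32, Hes1 at -2.32, Hes5 at -3.65 and Hey1 at 0.96. The geometric mean of these markers was 7867 in CNO 1 and 4502 in saline 5. With Hey1 at 435 and 353 normalized counts there, the scaled value was higher in saline 5 than in CNO 1, and groups overlapped. With quantile scaling Hes5 stood at -0.28, Hes1 at -1.002, Notch1 at -2.23 and Hey1 at 1.25. Mature oligodendrocyte markers were the only 1 of 9 marker lists whose share of reads did not overlap between groups (means of 18.2% and 6.43%, 2-sided exact permutation p = 0.1 and 0.9 when adjusted over the 9 lists), and 2 of the 12 markers, Mbp and Mobp, were the 2 genes that passed in limma. The difference was 11.7 percentage points, and 1.98 for the other markers as a share of reads outside the Mbp gene. The ratio of means, CNO over saline, was below 1 for Mag (0.748), Cldn11 (0.708) and Opalin (0.964). The part of these markers in the Notch gene differences was not tested. Microglia and macrophage markers took 0.593% to 1.29% of reads in CNO and 1.11% to 1.43% in saline. Precursor markers of oligodendrocytes took 0.0296% to 0.0698% and 0.0204% to 0.0463%, neuroblast markers 0.0131% to 0.0313% and 0.0135% to 0.0179%, and fibroblast markers 0.00555% to 0.0211% and 0.00790% to 0.0118%, in CNO and saline.

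The genes whose log2 values over the 6 libraries were most like those of Notch1 were Elmo2, Zmym5 and Ccdc6 (Pearson r = 0.99, 0.99 and 0.98 over 6 libraries). For Hes5 they were Atp5l, Tmem19 and Cstf3 (r = 0.99 for each). With 6799 and 6800 genes compared over 6 points that share library and depth, 125 and 146 genes had r over 0.9.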

How the data were processed

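RNA of sorted cortical cells was sequenced in 6 libraries, from 10 ng of total RNA each per the labels' protocols. The authors deposited a normalized signal, in which the reads of a gene were scaled by the size factor of its library. In every library 100% of values were whole multiples of 1 read within 1e-06 reads, and whole reads were recovered. STAR 2.5.0a on mm10, DESeq2 1.20.0, Trimmomatic 0.4, MultiQC 0.9 and FastQC 0.10.1 are named, per the submitters' processing notes. Not given in the sources used here are the read counter, the annotation and the use of strand, so genes overlapping Notch1, Notch2, Notch3, Dll1, Dner, Nrarp or Hes5 in GENCODE vM21 may share reads with them.

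Groups and replicate numbers came from the titles, and whether libraries came from separate animals is not stated, so p-values measure only the spread between libraries. limma 3.58.1 (R 4.3.3) tested log2 of the normalized count plus 1 for 13028 genes whose mean was 10 or more, with a variance trend, 2-sided, with Benjamini-Hochberg adjustment at 0.05. Fold changes are on that scale, where the pseudocount and libraries at 0 weigh on low genes in either direction. The method was tested on simulated data. Beside the 10 genes, the text names up to 2 genes of the pathway list per role by smallest p, any that passed, and 3 genes most like Notch1 and Hes5. A group of the pathway list that had been planned is not reported here. Genes and lists were chosen with earlier results of these data known. Marker shares and ratios used exact permutation tests. Reads carry no molecular identifiers, so the floor of 3 reads covers counting error only. Alternatives were pseudocounts, filters, scalings, edgeR 4.0.16, DESeq2 1.42.0, limma-voom and leaving out each library, with the filter recomputed on those that remained. Ratios within a library, and overlap counts with a library left out, were added after the data were seen. Beside the rule, Jag2, Dll3, Dll4, Bmx, Mbp, Mobp, Mag, Cldn11 and Opalin are named because their values were seen. Figures used matplotlib 3.10.9.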

Additional observations from a re-analysis of the deposited data

How the results depend on the processing

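Of 177 alternative values for the 10 Notch genes, 167 kept the direction and did not pass, 10 turned and 0 newly passed. The lowest adjusted p was 0.157 (limma without CNO 2). The 167 include Notch3, Dll1 and Hes5 in DESeq2, which kept the direction but had no adjusted p. Notch1, Notch3, Jag1, Dner, Hes1, Hes5 and Hey1 never turned where tested (Notch1 -2.81 to -1.53, Hey1 0.76 to 1.32), and the filter removed Notch3 without saline 3 and Hes5 without saline 5 or at a mean of 50. Notch2 turned in edgeR (0.14), edgeR without the filter (0.23) and DESeq2 (0.23), and ran from -1.07 to 0.29 over left-out libraries. Nrarp turned in the same fits (0.073, 0.14 and 0.28) and ran from -1.64 to 0.70. Dll1 turned with quantile scaling (0.15) and ran from -4.14 to 0.49. Quantile scaling also turned Notch4 (1.09), Neurl1a (0.35), Mib2 (0.39) and Hes6 (0.59), and Notch4 turned in edgeR (0.53), edgeR without the filter (0.63) and DESeq2 (0.59).

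Against 2 genes called, 0 were called with a mean of at least 50, quantile or astrocyte-marker scaling, no variance trend and edgeR, 16 in edgeR without the filter (13 higher, 3 lower) and in limma-voom (16 higher), 249 in DESeq2 (69 higher, 180 lower), and 0 to 2 with a library left out, where 2 were called without CNO 1 and 0 without any other. The cause was not tested. DESeq2 called 2 pathway genes against 0. The pathway median of -0.66 became -0.097 with quantile scaling, -0.23 in edgeR, -0.28 in edgeR without the filter and -0.15 in DESeq2, and ran from -1.32 (without saline 5) to -0.49 (without CNO 1) with a library left out. The median of all genes, -0.89, was -0.08 with quantile scaling and -0.11 in edgeR. With a library left out, 4 to 5 Notch genes were lower without overlap, beside 16.1% to 27.3% of all genes, and 1 to 2 higher (2, with Dner, without saline 3), beside 5.86% to 10.9%. The log2 ratio difference ran from 1.63 to 2.32 for Notch2 over Notch1 and from 2.80 to 3.995 for Hey1 over Hes1, added after the data were seen, as were the overlap counts. Marker share differences, in percentage points, turned outside the Mbp gene for astrocytes (0.218, from -0.061) and endothelium (0.00177, from -0.00026). With a library left out they ran from -0.611 to 0.575 for astrocytes, -0.00123 to 0.0189 for precursors, -0.0116 to 0.00708 for endothelium, -0.00567 to 0.00112 for mural cells and -0.00321 to 0.00454 for fibroblasts.

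No paired analysis was made because the labels name no pairs. The groups share only replicate number 3, and whether that number marks a pair is not stated. CNO 1, the shallowest library, limits the low genes: 1 read there equals 4.23 normalized counts, so Hes5, Dll1 and Notch3 at 0 allow up to 12.7.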
